A study of Arabidopsis thaliana with 18 samples.

Results

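The 7 genes that make and break down proline in Arabidopsis thaliana were followed across 6 genotypes. They were chosen by locus from the 33602 gene models that were counted, and all 7 were found and passed the filter on low counts. Proline dehydrogenases ProDH1 (AT3G30775, annotated as ERD5) and ProDH2 (AT5G38710) catalyse the committed step of breakdown in mitochondria, and P5CDH (AT5G62530) completes it by turning the intermediate pyrroline-5-carboxylate into glutamate. P5CS1 (AT2G39800) and P5CS2 (AT3G55610) catalyse the opening step of synthesis from glutamate, and P5CR (AT5G14800) the closing step. The ornithine aminotransferase delta-OAT (AT5G46180) feeds ornithine into the same intermediate.

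Proline accumulates in plants under drought and salt stress, and its breakdown afterwards returns carbon, nitrogen and electrons to respiration. ProDH1 is known to be induced by proline and by sugar starvation and to be repressed by sugar and by water deficit, while P5CS1 is the isoform induced by abscisic acid and water deficit. P5CS2 is known to serve dividing tissue.

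The genotypes were lst8-1, yak1, the double mutant yak1lst8-1, maktor1g1, maktor1g1maktor5g and the wild type Col0, all in the Col0 background. Each had 3 numbered libraries made from polyadenylated RNA of untreated whole plants, grown in vitro on 0.3% sucrose at 20 °C with 16 h of light to Boyes stage 1.02. LST8 is a partner protein of the growth-promoting kinase TOR, and YAK1 is a protein kinase. What the maktor alleles are, and whether any line is a single isolate, is not given in the labels. Because the design text counts 2 biological replicates and the titles number 3, the libraries may not be separate plant pools, and p-values then measure only the spread between these libraries, which may be technical. Total counts were 10801464 to 17548790 per library. Transcripts of LST8-1 (AT3G18140) numbered 13 to 39 counts in every lst8-1 and yak1lst8-1 library, against 626 to 913 counts in the 12 others. YAK1 (AT5G35980) was higher, at 322 ± 75.6 CPM in the libraries labelled yak1 and 337 ± 72.0 CPM in those labelled yak1lst8-1, against 122 ± 20.3 CPM in Col0 (SD, n = 3 each). The YAK1 transcript was thus not lower in the libraries labelled yak1, and these libraries are named by their labels throughout. Leaf and root markers were both present, as whole plants should have, and the 3 seed storage, 2 flower and 1 senescence markers were at most at 0.702 CPM in sum. The summed level of 4 leaf markers was 24793.5 to 27370.6 CPM in lst8-1, against 30145.6 to 33220.0 CPM in Col0, and that of 5 root markers was 2995.64 to 4320.37 CPM in lst8-1, against 3151.17 to 3383.41 CPM in Col0. These sums hide markers that went both ways, since PYK10 makes up most of the root sum. Of the root markers in lst8-1 against Col0, COBL9 (1.14, adjusted p = 6.15e-05) and EXPA7 (1.09, adjusted p = 0.00562) were called higher in log2 fold change, and TIP2;3 was at −1.14 (adjusted p = 0.135). Of the leaf markers, CA1 was called higher (0.38, adjusted p = 0.0103) and RBCS1A lower (−0.35, adjusted p = 0.0128). Their part in the results on lst8-1 was not tested. In whole plants, fewer cells of a type and less RNA per cell cannot be told apart.

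The promoters of 4 of the genes are shown because the hexamer ACTCAT is known from the ProDH1 promoter as an element that responds to proline and to low osmolarity and is bound by bZIP factors. Each run is the 250 bases before the annotated gene start, in the direction of the gene, from RefSeq's TAIR10.1 assembly. Capitals mark ACTCAT on either strand. The ProDH1 run is chr3:12451557-12451806 (minus strand), that of P5CDH is chr5:25103313-25103562 (minus strand), that of ProDH2 is chr5:15500876-15501125 (plus strand) and that of P5CS1 is chr2:16603320-16603569 (minus strand).
ProDH1: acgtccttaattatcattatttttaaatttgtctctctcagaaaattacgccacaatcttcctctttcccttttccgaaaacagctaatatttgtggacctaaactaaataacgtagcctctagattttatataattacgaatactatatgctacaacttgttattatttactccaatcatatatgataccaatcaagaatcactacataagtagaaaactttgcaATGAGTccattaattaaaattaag
P5CDH: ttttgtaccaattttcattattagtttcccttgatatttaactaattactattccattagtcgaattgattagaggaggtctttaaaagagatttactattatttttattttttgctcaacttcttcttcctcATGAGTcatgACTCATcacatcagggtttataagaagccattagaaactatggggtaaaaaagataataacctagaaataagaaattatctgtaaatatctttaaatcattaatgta
ProDH2: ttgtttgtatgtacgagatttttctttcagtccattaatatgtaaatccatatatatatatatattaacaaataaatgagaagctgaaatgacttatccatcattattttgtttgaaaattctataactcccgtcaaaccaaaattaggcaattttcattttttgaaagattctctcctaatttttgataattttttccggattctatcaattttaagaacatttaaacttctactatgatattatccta
P5CS1: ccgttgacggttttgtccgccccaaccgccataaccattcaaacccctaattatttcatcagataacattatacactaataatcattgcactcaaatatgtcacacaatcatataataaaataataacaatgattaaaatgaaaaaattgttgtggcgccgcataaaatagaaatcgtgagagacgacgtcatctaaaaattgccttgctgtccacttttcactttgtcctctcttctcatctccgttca
The ProDH1 window holds 1 match, on the opposite strand, with its first base 24 bases before the start. The P5CDH window holds 2 matches, 117 and 107 bases before the start, that do not overlap each other. No match lies in the windows of ProDH2, P5CS1, P5CS2, P5CR or delta-OAT. Of the 27443 protein-coding promoters of this length, 12.3% hold ACTCAT on either strand, so a match only describes these letters. Whether it is a site in use was not tested. The G-box CACGTG was in none of the 7 windows and in 6.49% of all promoters. The shorter word ACGTG, which lies within the G-box, was in the P5CR window and in 22.9% of all promoters.

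ProDH1 stood far above every other genotype in lst8-1. Its level, a count scaled to library size by TMM and given as CPM, was 564, 536 and 503 CPM in lst8-1. In yak1lst8-1 it was 140, 106 and 92.4 CPM. It was 75.0, 65.1 and 58.9 CPM in the libraries labelled yak1, 76.8, 80.6 and 72.6 CPM in maktor1g1, 86.2, 73.3 and 81.0 CPM in maktor1g1maktor5g, and 87.9, 71.1 and 77.9 CPM in Col0. All lst8-1 libraries were above all others, all yak1lst8-1 libraries were above the remaining 4 genotypes, and those 4 overlapped in the order maktor1g1maktor5g, Col0, maktor1g1 and yak1. ProDH1 was also the member with the largest difference between lst8-1 and Col0, 6.77-fold.

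ProDH2, the second isoform, was expressed far below ProDH1, with 24 to 127 counts per library. Its level was 7.42, 7.31 and 7.80 CPM in lst8-1. It was 3.56, 4.24 and 3.28 CPM in yak1lst8-1, 2.90, 3.08 and 3.26 CPM in yak1, and 3.54, 2.15 and 1.51 CPM in Col0. The maktor1g1 libraries were at 1.54 to 2.41 CPM and the maktor1g1maktor5g libraries at 1.93 to 3.08 CPM. The lst8-1 libraries were again above all others, and those of yak1lst8-1, though above those labelled yak1, overlapped Col0. Per kilobase of gene model, ProDH1 was 60.1 to 70.7 times as high as ProDH2 in lst8-1, 23.3 to 36.7 times in yak1lst8-1 and 23.1 to 47.9 times in Col0.

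P5CDH was highest in lst8-1, at 76.7, 72.5 and 69.8 CPM. It was 62.2, 52.6 and 40.8 CPM in yak1lst8-1, 53.3, 40.5 and 35.8 CPM in yak1, and 52.5, 45.3 and 44.1 CPM in Col0. Only lst8-1 stood apart from the others, and the 2 maktor genotypes, at 43.0 to 55.6 CPM, overlapped Col0. The P5CDH gene shares 905 bases with SRO5 (AT5G62520) on the opposite strand, and 28.1% of the 50-base words of its transcript also lie in SRO5. SRO5 averaged 5.88 ± 0.960 CPM in lst8-1 and 4.92 ± 2.09 CPM in Col0 (SD, n = 3 each). No source used here states if the counting took account of strand, so reads of this stretch are of uncertain origin.

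Of the synthesis genes, P5CS1 had its peak in another genotype. It was 118, 128 and 125 CPM in yak1lst8-1, 56.6, 72.8 and 91.9 CPM in lst8-1, 60.4, 55.7 and 68.1 CPM in yak1, and 36.0, 43.8 and 62.5 CPM in Col0. The yak1lst8-1 libraries were above all others, while the order lst8-1, yak1, Col0, maktor1g1 and maktor1g1maktor5g below them had overlap between all neighbours. The maktor libraries spanned 32.8 to 52.4 CPM. P5CS2 was 168, 170 and 198 CPM in lst8-1, 168, 173 and 175 CPM in yak1lst8-1, 130, 130 and 133 CPM in yak1, and 104, 117 and 123 CPM in Col0. The lst8-1 and yak1lst8-1 libraries overlapped each other and lay above the libraries of the other 4 genotypes. P5CS1 and P5CS2 share 4 of their 50-base words, 0.141% of those of P5CS1, so few reads could be assigned to either.

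P5CR was 95.5, 86.9 and 73.8 CPM in lst8-1, 73.8, 69.1 and 65.7 CPM in yak1lst8-1, 78.9, 65.1 and 68.2 CPM in yak1, and 70.1, 59.5 and 67.1 CPM in Col0. Its neighbours in the order of genotypes all overlapped, and 6.76% of its 50-base words occur in other loci. delta-OAT was 42.0, 40.5 and 38.9 CPM in lst8-1, 42.3, 39.9 and 38.5 CPM in yak1lst8-1, 38.7, 36.0 and 38.0 CPM in yak1, and 29.7, 30.9 and 33.0 CPM in Col0. All 9 of its libraries of the mutants other than maktor were above all Col0 libraries. The maktor1g1maktor5g libraries, at 33.0 to 36.1 CPM, lay just above those of maktor1g1, at 31.1 to 32.1 CPM.

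**Figure D1:**
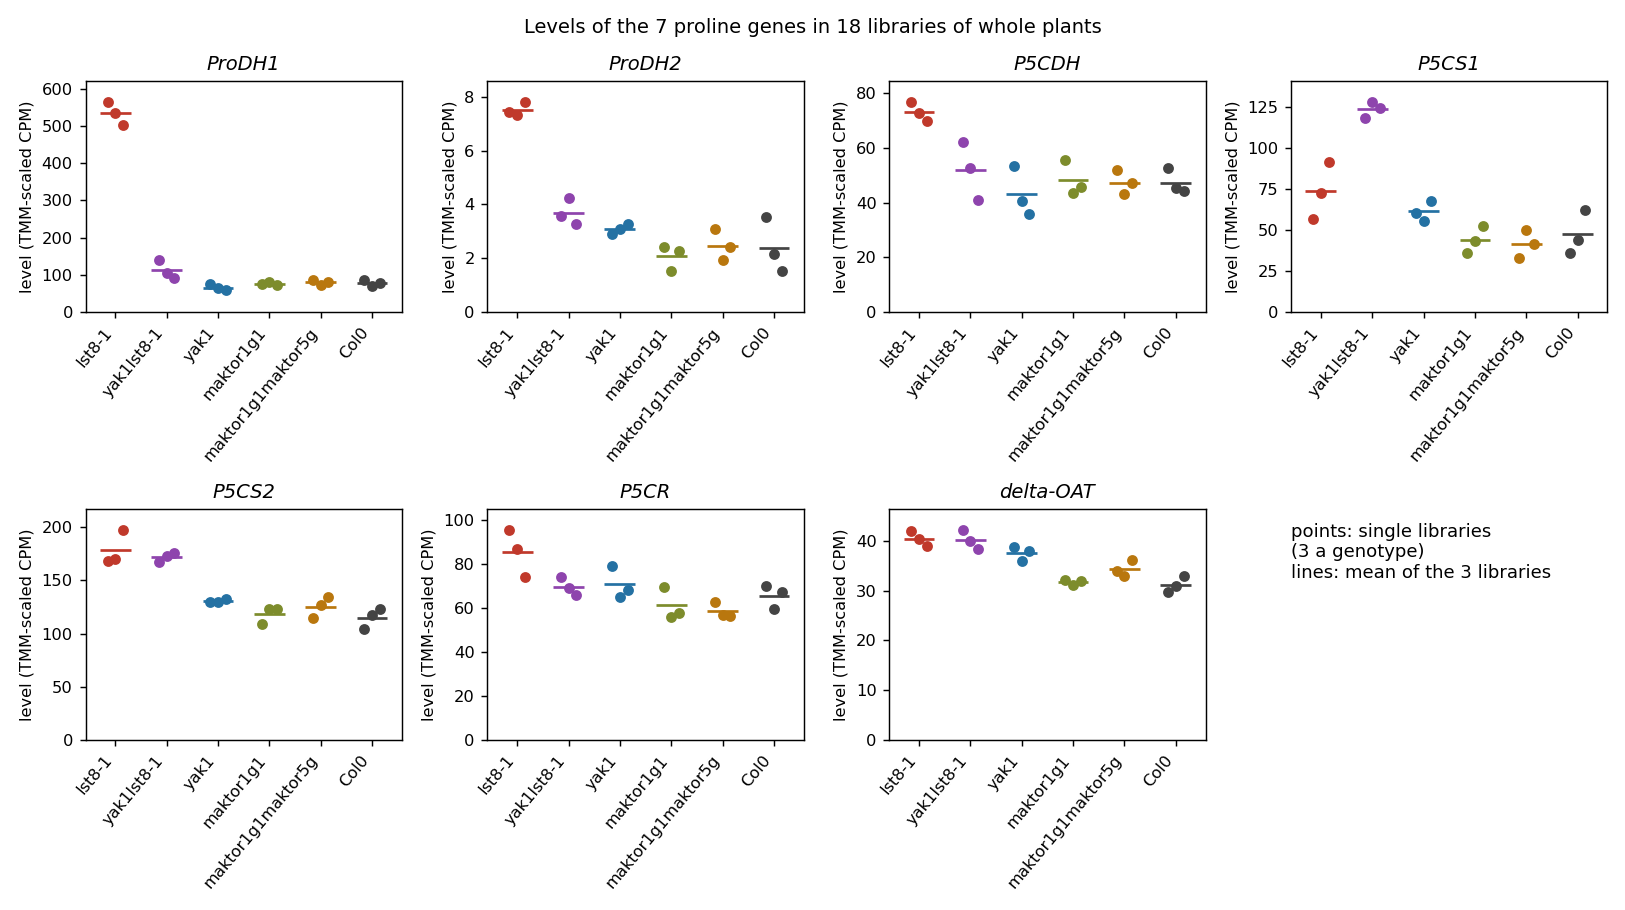
Levels of the 7 genes in TMM-scaled CPM (vertical axes from 0) by genotype; points are the 3 libraries of a genotype and lines their mean. ProDH1, ProDH2 and P5CDH are highest in lst8-1, P5CS1 in yak1lst8-1, and both maktor genotypes lie near Col0 in all 7 panels.

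The comparison of lst8-1 with Col0 asks how transcript levels of the 7 genes differ where the LST8-1 transcript is low. All 7 genes were higher in lst8-1 (edgeR quasi-likelihood test, adjusted p below 0.05 over all 20619 genes tested), where 27.5% of all genes were called, 14.1% higher and 13.4% lower. The median log2 fold change of the 7 was 0.63, against 0.00 for all genes. The breakdown genes ProDH1 and ProDH2 rose most, by 2.76 ± 0.13 (SE, adjusted p = 2.01e-10) and 1.65 ± 0.23 (adjusted p = 5.53e-05) on the log2 scale. P5CDH rose by 0.63 ± 0.15 (adjusted p = 0.00471). The synthesis genes P5CS2 and P5CS1 rose by 0.64 ± 0.08 (adjusted p = 2.10e-05) and 0.63 ± 0.21 (adjusted p = 0.0347), P5CR by 0.38 ± 0.10 (adjusted p = 0.0104) and delta-OAT by 0.38 ± 0.07 (adjusted p = 0.000414). The libraries of both genotypes did not overlap for 6 of the 7 genes, all but P5CS1, and for 40.0% of all genes tested. The P5CS1 call was lost without Col0 replicate 1 (adjusted p = 0.137), Col0 replicate 2 (0.0958), lst8-1 replicate 2 (0.0739) or lst8-1 replicate 3 (0.151), when only these 2 genotypes were fitted (0.0882) and with no filter on low counts (0.0577). The level of P5CS1 rose with the library number in both genotypes, and lst8-1 was above Col0 at each number. What the number marks is not given. The P5CR call was lost without Col0 replicate 2 (0.0619) or lst8-1 replicate 1 (0.0648).

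The libraries labelled yak1lst8-1 were compared with lst8-1 to see what differs between them where LST8-1 is low in both. The breakdown genes were all lower: ProDH1 fell by 2.24 ± 0.13 (adjusted p = 2.17e-09), ProDH2 by 1.03 ± 0.23 (adjusted p = 0.00197) and P5CDH by 0.49 ± 0.15 (adjusted p = 0.0175). P5CR fell by 0.30 ± 0.10 (adjusted p = 0.0345). P5CS1 rose, by 0.75 ± 0.20 (adjusted p = 0.0112). P5CS2 and delta-OAT were at −0.05 ± 0.08 (adjusted p = 0.654) and −0.01 ± 0.07 (adjusted p = 0.939). So 4 of the 7 were called lower, where 16.6% of all genes were, and 1 was called higher, where 16.4% were (33.0% in both directions). The median of the 7 was −0.30, against −0.02 for all genes. The summed leaf markers were 32616.3 to 36881.6 CPM in yak1lst8-1, against 24793.5 to 27370.6 CPM in lst8-1, and the root markers 2668.95 to 2969.96 CPM in yak1lst8-1, against 2995.64 to 4320.37 CPM in lst8-1. Of the 5 root markers, 3 were called lower (PYK10, COBL9 and EXPA7) and 1 higher (TIP2;3, by 1.71), and 3 of the 4 leaf markers were called higher and none lower. Their part in these differences was not tested. The calls of P5CDH, P5CS1 and P5CR were lost without certain single libraries, though each difference kept its direction. Without single libraries it ran from −0.64 to −0.34 for P5CDH, 0.59 to 0.93 for P5CS1 and −0.39 to −0.21 for P5CR. P5CDH lost its call without lst8-1 replicate 1 (adjusted p = 0.0589) or yak1lst8-1 replicate 3 (0.102), and P5CS1 without lst8-1 replicate 1 (0.0569). P5CR lost its call without lst8-1 replicate 1 (0.175), lst8-1 replicate 2 (0.0905), yak1lst8-1 replicate 2 (0.0892) or yak1lst8-1 replicate 3 (0.130), so 2 of the 7 genes were called without lst8-1 replicate 1 and 3 without yak1lst8-1 replicate 3.

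Against Col0, the libraries labelled yak1lst8-1 differed most in P5CS1, which rose by 1.38 ± 0.21 (adjusted p = 0.000268), a 2.60-fold difference. P5CS2 rose by 0.59 ± 0.08 (adjusted p = 6.44e-05), ProDH1 by 0.52 ± 0.13 (adjusted p = 0.00734) and delta-OAT by 0.37 ± 0.07 (adjusted p = 0.000710). ProDH2 was at 0.61 ± 0.25 (adjusted p = 0.0972), P5CDH at 0.14 ± 0.15 (adjusted p = 0.573) and P5CR at 0.08 ± 0.10 (adjusted p = 0.618). Thus 4 of the 7 were called higher and none lower, where 18.9% of all genes were called, 10.3% higher and 8.65% lower, and the libraries of these 4 genes did not overlap, as for 34.6% of all genes tested. ProDH1 was no longer called without yak1lst8-1 replicate 1, at 0.32 (adjusted p = 0.0548), while ProDH2 was called without Col0 replicate 1, at 1.01 (adjusted p = 0.00989). These comparisons share the lst8-1, yak1lst8-1 or Col0 libraries, so their values are given side by side only.

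**Figure D2:**
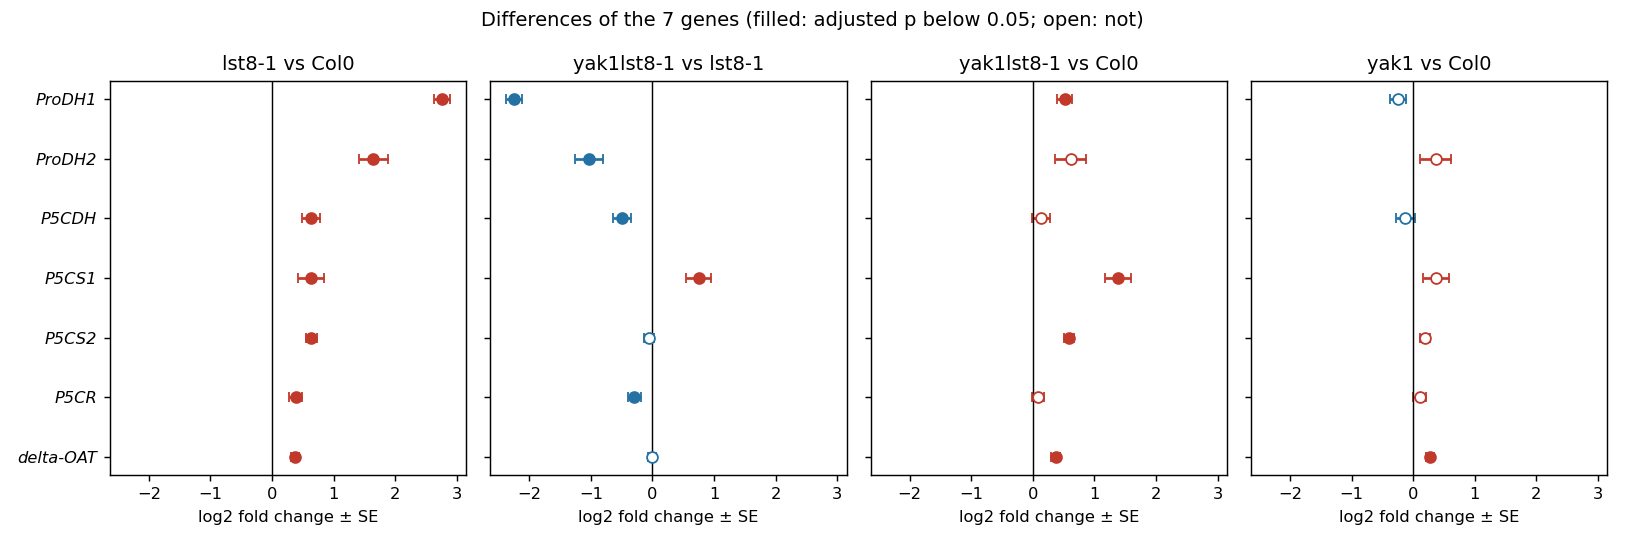
Log2 fold changes with their SE (horizontal axes) of the 7 genes in 4 comparisons; filled points passed an adjusted p of 0.05 and open points did not. In lst8-1 against Col0 all 7 points are filled and right of 0, and in yak1lst8-1 against lst8-1 ProDH1 is at −2.24 while P5CS1 is at 0.75.

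In the libraries labelled yak1, where LST8-1 was at the Col0 level, delta-OAT rose by 0.27 ± 0.07 against Col0 (adjusted p = 0.0130), and it was the only member called, where 11.9% of all genes were called, 5.75% higher and 6.11% lower. ProDH1 was at −0.25 ± 0.13 (adjusted p = 0.219), P5CS1 at 0.37 ± 0.21 (adjusted p = 0.283), ProDH2 at 0.36 ± 0.26 (adjusted p = 0.397) and P5CS2 at 0.19 ± 0.08 (adjusted p = 0.146). P5CDH and P5CR were at −0.13 ± 0.15 (adjusted p = 0.640) and 0.11 ± 0.10 (adjusted p = 0.553). No member was called when only these 2 genotypes were fitted (delta-OAT, adjusted p = 0.126), with library totals in place of TMM (0.0780) or without the libraries numbered 1 (0.149). With the library number added to the edgeR model as a block, ProDH1 (−0.25, adjusted p = 0.0462) and P5CS2 (0.19, adjusted p = 0.0282) were called too.

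Set against the libraries labelled yak1, those labelled yak1lst8-1 had more P5CS1, by 1.01 ± 0.21 (adjusted p = 0.0137), more ProDH1, by 0.77 ± 0.13 (adjusted p = 0.00194), and more P5CS2, by 0.39 ± 0.08 (adjusted p = 0.0114). These 3 of the 7 were called higher and none lower, where 2.99% of all genes were called, 1.88% higher and 1.11% lower. ProDH2 was at 0.25 ± 0.25 (adjusted p = 0.687), P5CDH at 0.27 ± 0.15 (adjusted p = 0.436), delta-OAT at 0.10 ± 0.07 (adjusted p = 0.526) and P5CR at −0.02 ± 0.10 (adjusted p = 0.943). The P5CS1 call was lost without yak1 replicate 1 (0.0644), yak1 replicate 2 (0.0698) or yak1lst8-1 replicate 2 (0.0519), that of P5CS2 without yak1 replicate 2 (0.0505), which left 1 member called, and that of ProDH1 when only these 2 genotypes were fitted (0.0779).

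The interaction asks whether the difference between libraries with and without the label yak1 is itself different where LST8-1 is low. It was called for ProDH1, at −1.99 ± 0.18 (adjusted p = 6.38e-06), and for ProDH2, at −1.40 ± 0.34 (adjusted p = 0.0303), where 3.46% of all genes were called, 1.35% in this direction and 2.11% in the other. For ProDH1 the difference was −2.24 between yak1lst8-1 and lst8-1 and −0.25 between yak1 and Col0. P5CR was at −0.41 ± 0.15 (adjusted p = 0.148), P5CDH at −0.36 ± 0.21 (adjusted p = 0.402), delta-OAT at −0.28 ± 0.09 (adjusted p = 0.118), P5CS2 at −0.24 ± 0.12 (adjusted p = 0.287) and P5CS1 at 0.38 ± 0.29 (adjusted p = 0.556). The ProDH2 interaction kept its direction but not its call without Col0 replicate 2 (0.0737), Col0 replicate 3 (0.0572), lst8-1 replicate 1 (0.0585), lst8-1 replicate 2 (0.0650), yak1 replicate 2 (0.0611), yak1 replicate 3 (0.0502) or yak1lst8-1 replicate 3 (0.0750), and when only these 4 genotypes were fitted (0.0516); ProDH1 alone was then called.

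**Figure D3:**
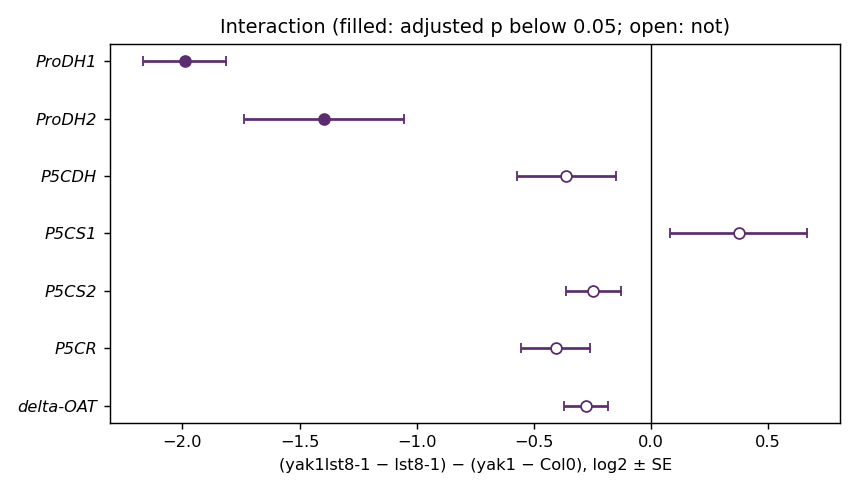
Interaction on the log2 scale with its SE (horizontal axis), the yak1lst8-1 minus lst8-1 difference less the yak1 minus Col0 difference, for the 7 genes; filled points passed an adjusted p of 0.05. ProDH1 at −1.99 and ProDH2 at −1.40 are filled, and P5CS1 at 0.38 is the only point right of 0.

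The balance of a breakdown gene and a synthesis gene was described by the ratio of ProDH1 to P5CS1 per kilobase of gene model, with no test, since both were chosen with earlier results known. The ratio was 8.48 to 15.4 in lst8-1, 1.15 to 1.84 in yak1lst8-1, 1.34 to 1.92 in yak1, 2.14 to 3.30 in maktor1g1, 2.25 to 4.06 in maktor1g1maktor5g and 1.93 to 3.77 in Col0. The lst8-1 libraries were above all others. All yak1 and yak1lst8-1 libraries were below all Col0 libraries, though for yak1 only just, at 1.92 against 1.93 where they come closest. Within the pair of P5CS genes, P5CS1 made up 38.3 to 39.5% of their summed level per kilobase in yak1lst8-1, 22.9 to 29.1% in lst8-1, 27.4 to 31.1% in yak1 and 23.4 to 31.0% in Col0. The yak1lst8-1 libraries were thus apart from the others in this share too.

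**Figure D4:**
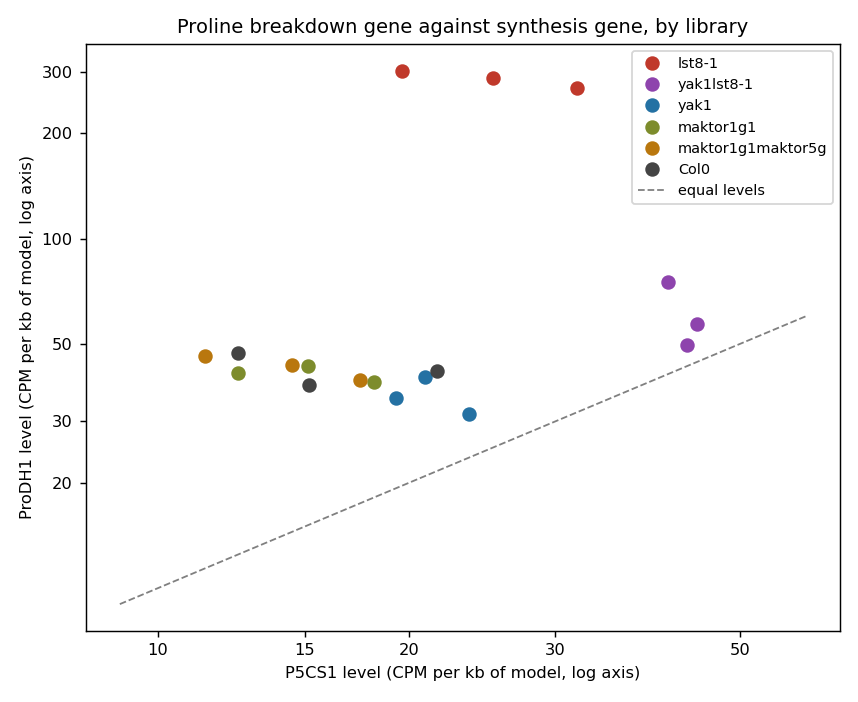
ProDH1 against P5CS1 in each of the 18 libraries, both in CPM per kilobase of gene model on log axes, coloured by genotype; the dashed line marks equal levels. The 3 lst8-1 libraries lie highest above the line, at ratios of 8.48 to 15.4, and the 3 yak1lst8-1 libraries lie far to the right, near the line.

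In neither maktor genotype did a member pass the edgeR test against Col0. In maktor1g1 the 7 log2 fold changes ran from −0.20 to 0.04 (median −0.04), none at an unadjusted p below 0.05. In maktor1g1maktor5g they ran from −0.19 to 0.14 (median 0.02), with 1 gene, delta-OAT, at an unadjusted p below 0.05. DESeq2 called 0 members in both. The background of the edgeR test was as low, with 0.0679% of all genes called in each. With the library number as a block, edgeR called 238 of 20619 genes in maktor1g1 and 653 in maktor1g1maktor5g, and again no member. DESeq2 called 102 of 20375 genes in maktor1g1 and 157 of 18859 in maktor1g1maktor5g. Between maktor1g1maktor5g and maktor1g1, 0.00970% of all genes and no member were called by edgeR. No member was at an unadjusted p below 0.05, and 0 were called by DESeq2, which called 3 of 26437 genes.

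Genes that move proline and related amino acids were read as a group of 9, of which 8 passed the filter. In lst8-1 against Col0, 2 of the 8 rose and none fell (median 0.08), near the share of all genes called (27.5%, 14.1% higher). These were the amino acid permease AAP1 by 0.63 ± 0.12 (adjusted p = 0.000647) and the proline transporter ProT3 by 0.74 ± 0.26 (adjusted p = 0.0394). ProT3 lost its call without Col0 replicate 1 (0.123), Col0 replicate 3 (0.111), lst8-1 replicate 1 (0.178) or all libraries numbered 1 (0.338), with DESeq2 (0.0503) and when only these 2 genotypes were fitted (0.0524). In yak1lst8-1 against lst8-1, 1 of the 8 rose and 2 fell, where 33.0% of all genes were called. The permease AAP2 fell by 1.03 ± 0.13 (adjusted p = 1.34e-05), at 105 ± 4.34 CPM against 215 ± 21.9 CPM (SD, n = 3 each), and the amino acid transporter LHT1 rose by 0.59 ± 0.12 (adjusted p = 0.00139). The arginine and ornithine carrier BAC1 fell by 0.34 ± 0.12 (adjusted p = 0.0303), a call lost without lst8-1 replicate 1 (0.0893), lst8-1 replicate 2 (0.0605), yak1lst8-1 replicate 1 (0.0847), yak1lst8-1 replicate 2 (0.0981) or all libraries numbered 1 (0.211), with DESeq2 (0.0971) and when only these 2 genotypes were fitted (0.0795). In yak1 against Col0, 1 of the 8 rose and 1 fell, where 11.9% of all genes were called. AAP2 fell by 0.93 ± 0.13 (adjusted p = 0.000170), and LHT1 rose by 0.50, a call lost without yak1 replicate 3 (0.0578). ProT1 and ProT2, the other proline transporters, were not called in lst8-1, at 0.04 and 0.12.

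Of 8 genes of arginine and glutamate metabolism, 1 rose and 1 fell in lst8-1 against Col0 (median 0.13), near the 27.5% of all genes called. Glutamate dehydrogenase GDH2, which deaminates the glutamate that proline breakdown yields, averaged 341 ± 10.8 CPM in lst8-1, against 100.2 ± 22.4 CPM in Col0 (SD, n = 3 each), and rose by 1.77 ± 0.17 (adjusted p = 1.45e-06). Its paralog GDH3, with a mean of 0.377 ± 0.177 CPM in lst8-1, against 1.18 ± 0.473 CPM in Col0, fell by 1.68 ± 0.42 (adjusted p = 0.00556). In yak1lst8-1 against lst8-1, 3 of the 8 rose and 2 fell, where 33.0% of all genes were called. GDH2 fell by 1.25 ± 0.16 (adjusted p = 3.49e-05) and GDH3 rose by 1.97 ± 0.41 (adjusted p = 0.00128). Both GDH3 differences rest on few reads, 3 to 8 counts per library in lst8-1, 10 to 28 in Col0 and 14 to 24 in yak1lst8-1. Arginase ARGAH2, which releases ornithine for delta-OAT, rose by 1.08 ± 0.13 in yak1lst8-1 against Col0 (adjusted p = 1.95e-05) and by 0.75 ± 0.13 against lst8-1 (adjusted p = 0.000376). In yak1lst8-1 against Col0, 4 of the 8 rose and none fell, where 18.9% of all genes were called and 10.3% higher, among them the glutamate synthase gene GLU1, by 0.60 ± 0.11 (adjusted p = 0.000522). Its paralog GLU2 rose by 0.28 ± 0.08 (adjusted p = 0.0184), a call lost without Col0 replicate 1 (0.0904), yak1lst8-1 replicate 3 (0.0942) or all libraries numbered 1 (0.0734), and when only these 2 genotypes were fitted (0.0841).

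The bZIP factors known to bind the ACTCAT element form groups C and S1. All 5 group S1 genes listed, bZIP1, bZIP2, bZIP11, bZIP44 and bZIP53, were listed at 0 in all 18 libraries, each beside a neighbouring model of the same length that was also at 0. Their levels cannot be read from these counts. Of the 4 group C genes, 1 rose and 2 fell in lst8-1 against Col0, where 14.1% of all genes were called higher and 13.4% lower. bZIP9 rose by 0.91 ± 0.09 (adjusted p = 9.54e-07), at 47.5 ± 3.65 CPM against 25.3 ± 2.32 CPM (SD, n = 3 each), while bZIP25 fell by 0.43 ± 0.09 (adjusted p = 0.00136) and bZIP10 by 0.29 ± 0.07 (adjusted p = 0.00525). In yak1lst8-1 against lst8-1, bZIP9 fell by 0.33 ± 0.09 (adjusted p = 0.00801), a call lost without the libraries numbered 1 (0.0536), and bZIP25 rose by 0.38 ± 0.09 (adjusted p = 0.00298).

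Among 9 genes reported to act on P5CS1 or in abscisic acid signalling, 8 were tested. In lst8-1 against Col0, 4 rose and none fell (median 0.39), where 27.5% of all genes were called and 14.1% higher, including the abscisic acid response factors ABF4, by 0.66 ± 0.08 (adjusted p = 2.10e-05), and ABF3, by 0.73 ± 0.10 (adjusted p = 2.59e-05), and the signalling phosphatase gene ABI2, by 0.71 ± 0.13 (adjusted p = 0.000466). In yak1lst8-1 against Col0, 4 also rose and none fell (median 0.28), where 18.9% of all genes were called and 10.3% higher. There ABF3 rose by 0.74 ± 0.10 (adjusted p = 3.39e-05) and the factor NAC055, at 9.04 ± 1.69 CPM against 4.73 ± 1.11 CPM (SD, n = 3 each), by 0.94 ± 0.19 (adjusted p = 0.00192). ABF2 rose there by 0.37 ± 0.09 (adjusted p = 0.00534), a call lost without the libraries numbered 1 (0.0728). In yak1lst8-1 against lst8-1, none of the 8 rose and 2 fell, below the 33.0% of all genes called. ABF4 fell by 0.67 ± 0.09 (adjusted p = 1.59e-05). HY5, a light response factor, fell by 0.29 ± 0.11 (adjusted p = 0.0438), a call lost without lst8-1 replicate 2 (0.148), lst8-1 replicate 3 (0.0779), yak1lst8-1 replicate 2 (0.173) or yak1lst8-1 replicate 3 (0.0921), with no filter on low counts (0.0591), with DESeq2 (0.0899) and when only these 2 genotypes were fitted (0.0910).

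The genes whose pattern was most like a member's were ranked by Pearson's r of log2 CPM over the 18 libraries, as a description, among 7309 or 7310 genes with a symbol and a mean of at least 5 CPM. The libraries share genotypes and preparation, and the 3 lst8-1 libraries lie far from the rest for the ProDH genes, so r over the other 15 libraries is given too. ProDH1 was most like GDH2 (r = 0.978, and 0.927 over the 15), the cytochrome P450 gene CYP705A19 (0.977 and 0.870), the linker histone gene HIS1-3 (0.974 and 0.717), SIP2, of raffinose breakdown (0.972 and 0.662), and the nitrilase gene NIT3 (0.969 and 0.673). For ProDH2 they were MST1, PRXIIF, JAL33, MES9 and ATC, with r of 0.901 to 0.928 and of 0.724 to 0.839 over the 15. P5CS1 was most like RXW8 (r = 0.965, and 0.969 over the 15), the light signalling repressor SPA4 (0.961 and 0.968), the abscisic acid signalling phosphatase HAB1 (0.935 and 0.931), the abscisic acid synthesis gene ABA1 (0.932 and 0.933) and the nitrile specifier gene NSP5 (0.929 and 0.932). For P5CS1 the libraries that lie apart are those of yak1lst8-1, which stay among the 15. Its second r is therefore no check on them. For ProDH1 the yak1lst8-1 libraries likewise lie above all others of the 15, so its second r may rest on them too. An r without yak1lst8-1 was not computed for either gene.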

How the data were processed

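RNA sequencing counts of 18 libraries were used. Per the labels' protocols, polyA RNA was selected and stranded single-end libraries were made; per the submitters' processing notes, TopHat2, Bowtie2 and TAIR10 were used, and versions are not given in the sources used here. Reads whose best alignment score was matched elsewhere were dropped before counting, per the file headers, which put them at 1.85 to 2.22% per library. The deposited values are read counts per gene model, with the model's length as another column of the authors' files. The members and lists were chosen with earlier results of these data known.

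Levels are TMM-scaled CPM, or CPM per kilobase of model length, computed with edgeR 4.0.16 in R 4.3.3. Genes were filtered with filterByExpr (20619 kept) and 1 quasi-likelihood model with genotype as its term and robust dispersion was fitted to all libraries (12 residual degrees of freedom, common biological coefficient of variation 10.8%). Tests were two-sided, adjusted by Benjamini-Hochberg over all genes tested, and called at an adjusted p below 0.05. SE is the log2 fold change over the square root of F. A count of 0 allows up to 0.278 CPM in the shallowest library (3 counts), for counting error only. The scripts were tested on simulated data. Gene names and promoters are from RefSeq's TAIR10.1 annotation; the deposited tables hold no coordinates.

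Named were all members, up to 3 called genes with the smallest adjusted p per list, and the 5 genes most like ProDH1, ProDH2 and P5CS1; ProT1 and ProT2 were added after their values were seen, and not every comparison of a list is described. No 2 libraries of a genotype agreed within counting noise (chi-square per degree of freedom 2.91 to 21.9). Alternatives were RLE size factors, library totals, DESeq2 1.42.0, no filter, fewer genotypes or libraries, and a replicate block.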

Additional observations from a re-analysis of the deposited data

Results flagged for a closer look

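For 5 genes the difference between libraries with and without the label yak1 itself differed between low and normal LST8-1, by edgeR's test of the interaction (log2, adjusted over all genes). Of all genes tested, 3.46% were called, 1.35% in the direction of these 5, which include 2 of the 7 members. ProDH1 was at −1.99 (adjusted p = 6.38e-06), with yak1lst8-1 below lst8-1 in 3 of 3 libraries and yak1 overlapping Col0. ProDH2 was at −1.40 (adjusted p = 0.0303), with the same overlaps. The ProDH2 call was lost in the alternatives listed for it above, at adjusted p of 0.0502 to 0.0750. Among the related genes, GDH2 was at −1.08 (adjusted p = 0.0179), bZIP9 at −0.70 (adjusted p = 0.00477) and ABF4 at −0.50 (adjusted p = 0.0304). They were 1 of 8, 1 of 4 and 1 of 8 genes tested in their lists, and none of 8 proline carriers was called. The GDH2 call was lost without Col0 replicate 2 (0.0537), without yak1lst8-1 replicate 2 (0.0553) and when only the 4 genotypes were fitted (0.0683). The ABF4 call was lost in 9 alternatives, at adjusted p of 0.0573 to 0.0865. Groups of 3 libraries are too small for a check of single outlying values.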

How the results depend on the processing

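No count of members called in lst8-1 against Col0 (7; 5 to 7 without single libraries) or yak1lst8-1 against Col0 (4; 3 to 5) changed by over 1.5 times in any alternative, and it was 0 throughout for the 3 maktor comparisons. For yak1 against Col0 the count of 1 became 0 with library totals, without the libraries numbered 1 and when only the genotypes compared were fitted, and 3 with the replicate block, which added ProDH1 (−0.25, adjusted p = 0.0462) and P5CS2 (0.19, adjusted p = 0.0282). Without single libraries it was 1 throughout. The other counts ranged from 2 to 5 (yak1lst8-1 against lst8-1), 1 to 3 (yak1lst8-1 against yak1) and 1 to 2 (interaction) without single libraries, and the interaction count was 1 when only the 4 genotypes were fitted.

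The block also added the P5CR interaction (−0.40, adjusted p = 0.0114) and moved the calls over all genes from 2446 to 4111 in yak1 against Col0, from 616 to 1601 in yak1lst8-1 against yak1, from 714 to 1889 for the interaction, and from 14 to 238 and 653 in maktor1g1 and maktor1g1maktor5g against Col0. The block ended no call of a member, and P5CS1 in lst8-1 against Col0 was among those kept. Same-numbered libraries correlated at −0.05 to 0.55 in their deviations from the genotype means, over 0.1 in 31 of 45 pairs. The numbers were not taken to pair the samples, since that was to need every pair over 0.1 and 2 of 15 pairs numbered 2 passed it. All 15 pairs numbered 1 did, at 0.24 to 0.55, as did 14 of 15 numbered 3. Deviations within a genotype sum to 0, so the pairs of the 3 numbers are not separate checks. Of 18 libraries, 14 correlated best with their own number, a hint from the data of something shared by number.

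Values of 4 uncalled differences changed sign and stayed uncalled. P5CDH in yak1lst8-1 against Col0 was −0.025 without yak1lst8-1 replicate 1 and ran from there to 0.278 without single libraries. P5CS2 in yak1lst8-1 against lst8-1 was 0.024 without lst8-1 replicate 3 (range −0.096 to 0.024). P5CR in yak1lst8-1 against yak1 was 0.012 without the libraries numbered 1, 0.059 without yak1 replicate 1 and 0.011 without yak1lst8-1 replicate 3 (range −0.085 to 0.059). delta-OAT in yak1lst8-1 against lst8-1 was 0.0011 with RLE size factors and with DESeq2, 0.0019 with only the genotypes compared, 0.019 without lst8-1 replicate 1 and 0.022 without yak1lst8-1 replicate 3 (range −0.041 to 0.022). The cause was not tested. Of 588 alternative values of the members in the comparisons without a maktor genotype, 541 kept direction and side of the threshold. These include uncalled differences that stayed uncalled. Of the rest, 32 lost a call, 5 gained one and 10 changed sign. ProDH2, with 24 to 127 counts, has the least depth.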

Other observations

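Several members differed between the numbered libraries in the same way in every genotype. P5CDH and P5CR were highest in the library numbered 1 in 6 of 6 genotypes, and P5CS2 was lowest there in 6 of 6 and highest in the library numbered 3 in 6 of 6. P5CS1 was lowest in the library numbered 1 in 5 of 6 genotypes, and ProDH1 highest there in 5 of 6. The labels do not say what the number marks, and each genotype has 1 library of each number.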
